A study of Homo sapiens with 19 samples.

Results

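hsa-miR-375-3p and hsa-miR-205-5p (written without the prefix from here on) are lineage miRNAs, 2 of the 1043 mature miRNAs listed in small RNA libraries of Caco-2 cells and their medium. They were taken by name from the deposited counts of 18 libraries in 5 groups. The pair was chosen by lineage and by its counts in all 5 groups, which were already known, so levels and fold changes are given as descriptions, without p-values. Caco-2 is an established human colorectal epithelial line, labelled wild type. All groups share the same handling: cells grown with 20% FBS (fetal bovine serum) to 80% confluence, then kept for 24 h without serum and antibiotics. The groups are cell lysate (n = 3), total extracellular RNA (total exRNA, n = 4) from medium cleared of debris, the pellet of a 40000 xg spin (P40, n = 4), the pellet of the next spin at 100000 xg (P100, n = 4) and the supernatant of that spin (S100, n = 3). Nucleic acids of S100 and total exRNA were precipitated ahead of Trizol, whereas lysate, P40 and P100 went into Trizol directly, so fraction and preparation cannot be told apart between these sets. Replicate 1 of S100 held 48 counts in all and 0 of either miRNA and was not used, which leaves S100 replicates 2 to 4.

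miRNAs are short RNAs that guide Argonaute proteins to messenger RNAs, mainly through the seed, bases 2 to 8, and lower the output of those messages. miR-375-3p is known from pancreatic islets and other endocrine cells, including the enteroendocrine cells of the gut. It is also a familiar miRNA of intestinal epithelium. miR-205-5p is known from stratified squamous and basal epithelia such as skin, and with the miR-200 family it represses the ZEB factors that drive epithelial cells toward a mesenchymal state. It is not a typical miRNA of the columnar lining of the colon.

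Both mature sequences are shown with the seed in capitals, since the seeds and the distance from other human miRNAs bear on how securely the reads can be assigned (RefSeq, GRCh38.p14).
miR-375-3p: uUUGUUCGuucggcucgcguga
miR-205-5p: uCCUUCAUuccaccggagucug
Each is 22 bases long with 12 G or C. Equal length and base content do not show that equal counts of miR-375-3p and miR-205-5p stand for equal molecules, which was not measured. Among 2370 human mature miRNA names in that table, 0 others carry the seed of miR-375-3p and 0 the seed of miR-205-5p. The nearest other mature sequence was 8 edits away for each (miR-2113 and miR-6781-3p, both with 0 counts in the 18 libraries). Neither therefore has a near-identical relative in that table with which it could exchange reads.

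The hairpins are shown with the member arm in capitals, because nearly all counts came from that arm.
MIR375: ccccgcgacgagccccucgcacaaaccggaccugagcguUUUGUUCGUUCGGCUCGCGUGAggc
MIR205: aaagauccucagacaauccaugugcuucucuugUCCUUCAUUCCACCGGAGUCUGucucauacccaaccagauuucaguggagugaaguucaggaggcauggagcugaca
MIR375 lies at chr2:219001645-219001708 (GRCh38, minus strand), and GENCODE 29 annotates no other gene there. It sits between the protein-coding genes CRYBA2 and CFAP65, the latter 1138 bases away. MIR205 lies at chr1:209432133-209432242 (plus strand) within the long non-coding RNA gene MIR205HG. Exons of MIR205HG in that annotation begin at base 209432204, inside the hairpin. miR-205-5p (209432166 to 209432187) lies upstream of these exons, in intronic sequence. The opposite arm miR-205-3p begins at base 209432203. The opposite arms were almost absent. miR-375-5p had 0 counts in all 18 libraries, against 4168 counts of miR-375-3p. In the deepest library, S100 replicate 3, a count of 0 allows up to 13.3 CPM (3 counts). miR-205-3p had 6 counts in 4 libraries (5 in S100 and 1 in total exRNA), against 5990 counts of miR-205-5p. Neither opposite arm passed the filter on low counts, so no difference between groups was tested for them.

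Sequencing depth was uneven. Counts per library ran from 198878 to 225290 in S100, from 37453 to 157051 in lysate, from 34427 to 61622 in total exRNA, from 10490 to 26096 in P40 and from 10017 to 27027 in P100. The 8 epithelial markers listed for the labelled intestinal cell type (such as miR-192-5p and miR-200c-3p) were all counted in all 18 libraries. Together they held 2.59% to 5.56% of counts. The list includes the miR-200 family, which is not particular to the intestine. In lysate miR-200c-3p had 10988 counts against 1440 of miR-192-5p, so this share does not by itself mark intestinal identity. Markers of blood cells, 7 of 7 with a count somewhere, summed to 0.0400% to 0.0439% of counts in lysate, 0.0900% to 0.232% in total exRNA, 0.273% to 0.343% in P40, 0.140% to 0.283% in P100 and 0.00799% to 0.0151% in S100, and miR-451a, miR-223-3p and miR-144-3p were at 0 in lysate. Mesenchymal markers (5 of 5 with a count) held 0.0160% to 0.189%, the liver marker miR-122-5p 0.0104% to 0.0833%, and muscle markers (2 of 3 with a count, miR-206 at 0) 0% to 0.0575%. Their part in the levels described here was not tested.

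miR-375-3p made up 0.379%, 0.473% and 0.476% of the counts of lysate replicates 1 to 3 (142, 743 and 314 counts). In total exRNA it made up 0.182%, 0.282%, 0.236% and 0.131% in replicates 1 to 4 (70, 174, 116 and 45 counts). Every total exRNA library was below every lysate library. In P40 the shares were 0.486%, 0.515%, 0.705% and 0.419% (70, 98, 184 and 44 counts), overlapping with lysate. In P100 they were 0.748%, 0.593%, 0.633% and 0.649% (135, 138, 171 and 65 counts), above every lysate and total exRNA library and overlapping only with P40 replicate 3. S100 replicates 2 to 4 had 0.283%, 0.189% and 0.308% (562, 425 and 672 counts), below every lysate and pellet library and within or just above the range of total exRNA. Counting error was largest where the libraries were shallow: in P40 replicate 4 the exact 95% binomial interval ran from 0.305% to 0.563%. PCR reads without molecular identifiers are not independent molecules, so these intervals cover counting error only.

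miR-205-5p made up 0.854%, 0.610% and 0.891% of the counts of lysate replicates 1 to 3 (320, 958 and 588 counts). In total exRNA it made up 1.07%, 0.880%, 1.04% and 0.738% in replicates 1 to 4 (410, 542, 511 and 254 counts). In P40 the shares were 0.736%, 0.730%, 0.878% and 0.734% (106, 139, 229 and 77 counts). These 3 groups overlapped with one another. P100 stood lower, at 0.344%, 0.387%, 0.311% and 0.230% (62, 90, 84 and 23 counts), and S100 replicates 2 to 4 had 0.311%, 0.233% and 0.208% (619, 524 and 454 counts). No library of P100 or S100 reached the lowest library of lysate, total exRNA or P40, while P100 and S100 overlapped. The lowest P100 value, replicate 4, rested on 23 counts with an exact 95% interval of 0.146% to 0.344%.

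By rank in a library, miR-205-5p stood between 18th and 28th of all miRNAs in lysate, total exRNA and P40 and between 43rd and 57th in P100 and S100. miR-375-3p stood 23rd to 30th in P100, 31st to 43rd in lysate and P40, 44th to 68th in S100 and 53rd to 85th in total exRNA. The better-ranked of the pair was thus miR-205-5p in all libraries of lysate, total exRNA and P40, miR-375-3p in all of P100, and either one in S100.

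To compare groups, library sizes were adjusted with edgeR's TMM factors, and levels are given as scaled CPM (counts set to a common library size). Such values are scaled shares. They do not give the amount of a miRNA in a fraction, and in lysate fewer cells with the miRNA and less of it per cell cannot be told apart. For miR-375-3p the mean was 7006 ± 918 CPM in P100 (SD, n = 4), 5171 ± 288 in lysate (n = 3), 4874 ± 1232 in P40 (n = 4), 2726 ± 888 in S100 (n = 3) and 1947 ± 557 in total exRNA (n = 4). In that order the neighbours lysate and P40, P40 and S100, and S100 and total exRNA had overlapping libraries. P100 and lysate did not overlap (5940 to 8001 against 4955 to 5498 CPM).

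For miR-205-5p the mean was 9243 ± 2048 CPM in lysate (SD, n = 3), 8797 ± 1595 in total exRNA (n = 4), 7031 ± 821 in P40 (n = 4), 3390 ± 711 in P100 (n = 4) and 2580 ± 528 in S100 (n = 3). With other scalings or without single libraries, miR-205-5p in total exRNA against lysate changed sign in 10 of 14 settings and miR-375-3p in P40 against lysate in 6 of 14, so the order within these pairs is not fixed. The only gap between neighbours in the order of miR-205-5p was between P40 (6088 to 7919 CPM) and P100 (2333 to 3874 CPM). In scaled CPM the level of miR-205-5p was thus spread over 2 tiers, whereas miR-375-3p ran through a series of partly overlapping groups. In unscaled shares miR-375-3p also split, at 0.131% to 0.308% in total exRNA and S100 and 0.379% to 0.748% in lysate, P40 and P100. That split follows the 2 preparations, so fraction and preparation cannot be told apart for it. Total exRNA, the unfractionated medium, lay outside the span of its 3 fractions in group means: lowest for miR-375-3p and highest for miR-205-5p. For miR-375-3p it overlapped with S100, and for miR-205-5p with P40.

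**Figure D1:**
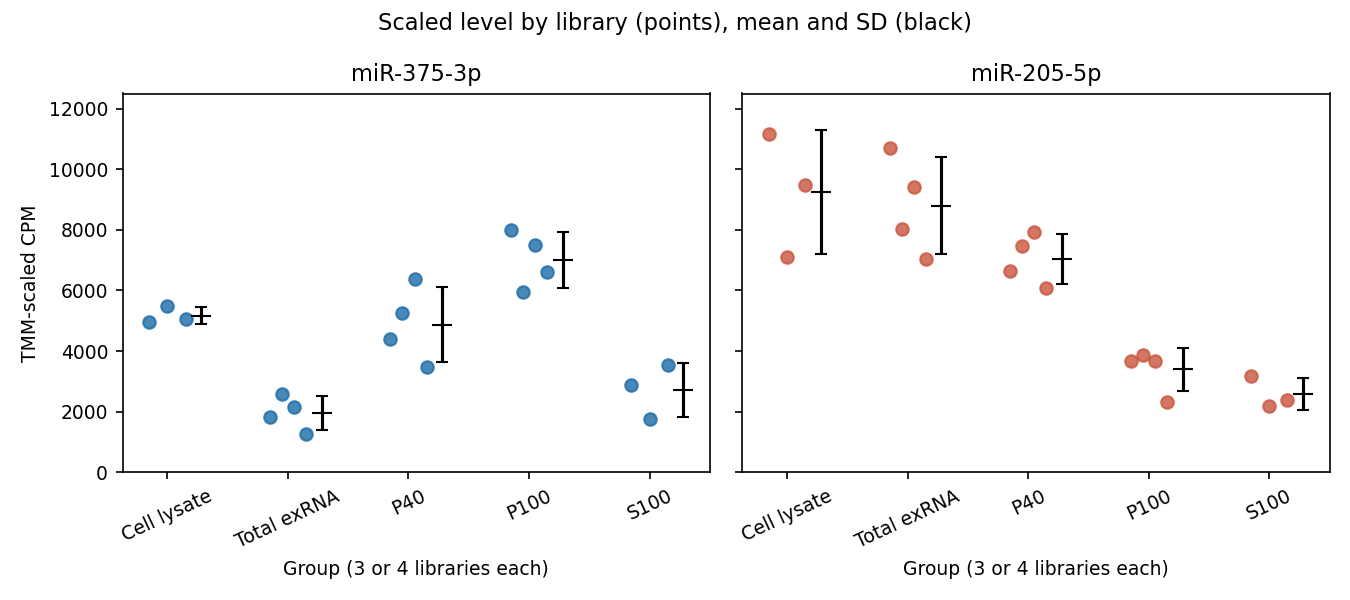
TMM-scaled CPM (y axis, linear from 0) of miR-375-3p (left) and miR-205-5p (right) in each library, by group (x axis); black marks are the group mean with SD. miR-375-3p is highest in P100 and lowest in total exRNA, while miR-205-5p is at 6088 CPM or more in every library of lysate, total exRNA and P40 and at 3874 CPM or less in every library of P100 and S100.

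The ratio of the 2 miRNAs within a library does not depend on how libraries are scaled. In lysate replicates 1 to 3 there were 0.444, 0.776 and 0.534 counts of miR-375-3p per count of miR-205-5p. In total exRNA replicates 1 to 4 the ratio was 0.171, 0.321, 0.227 and 0.177, below every library of the other groups. P40 gave 0.660, 0.705, 0.803 and 0.571, inside and just above the range of lysate. In P100 the order was turned around, with 2.18, 1.53, 2.04 and 2.83 counts of miR-375-3p per count of miR-205-5p. S100 replicates 2 to 4 gave 0.908, 0.811 and 1.48, between P40 and P100 with no overlap. However, the gap to P40 replicate 3 (0.803 against 0.811) was far below counting error. So was the gap between S100 replicate 4 and P100 replicate 2 (1.48 against 1.53).

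Put as a share of the summed counts of both, miR-375-3p made up 14.6% to 24.3% in total exRNA, 30.7% to 43.7% in lysate, 36.4% to 44.6% in P40, 44.8% to 59.7% in S100 and 60.5% to 73.9% in P100. The exact 95% binomial interval excluded an even split in every library except S100 replicate 2 (44.7% to 50.5%). All libraries of lysate, total exRNA and P40 therefore held more counts of miR-205-5p and all libraries of P100 more counts of miR-375-3p, beyond counting error. This describes counts of a pair chosen with them known. Whether equal counts of the 2 miRNAs mean equal molecules was not measured. S100 replicate 4 (56.7% to 62.6%) went against S100 replicate 3 (41.6% to 48.0%).

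**Figure D2:**
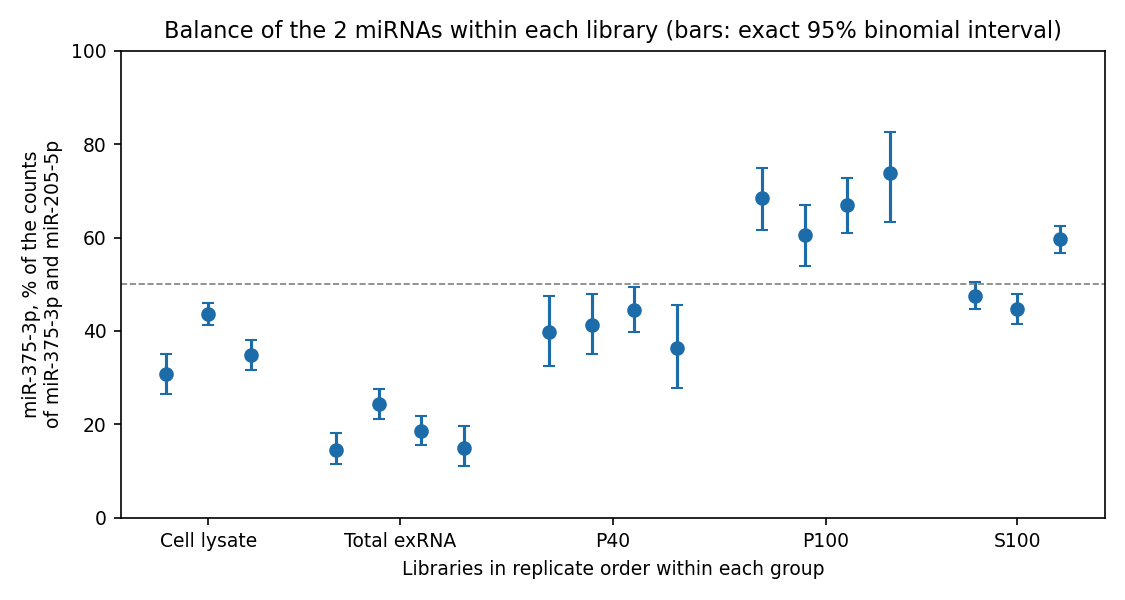
Share of miR-375-3p (y axis, percent) in the summed counts of miR-375-3p and miR-205-5p, by library and group (x axis); bars are exact 95% binomial intervals and the dashed line marks an even split. Total exRNA lies lowest, lysate and P40 lie below the line, P100 lies above it, and S100 straddles it.

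On the log2 scale, with 0.5 added to each count, the mean ratio was -0.81 ± 0.41 in lysate (SD, n = 3), -2.20 ± 0.42 in total exRNA (n = 4), -0.55 ± 0.20 in P40 (n = 4), 1.06 ± 0.36 in P100 (n = 4) and 0.04 ± 0.46 in S100 (n = 3). The ratio was 3.05-fold higher in P100 than in P40, 3.66-fold higher than in lysate and 9.56-fold higher than in total exRNA. It was 2.61-fold lower in total exRNA than in lysate. P40 and lysate overlapped, at 1.20-fold. A batch number equal to the replicate number is given in the labels, and within batches P100 exceeded P40 and total exRNA in 4 of 4 and lysate in 3 of 3. Total exRNA was below lysate in 3 of 3 batches and P40 was above lysate in 2 of 3. Where groups do not overlap, here and below, a full count within batches follows from that and adds nothing.

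The fit across all 227 miRNAs that passed the filter gives each member's difference with its standard error. Against lysate, miR-375-3p had a log2 fold change of -1.40 ± 0.31 (SE) in total exRNA, -0.08 ± 0.31 in P40, 0.44 ± 0.32 in P100 and -0.92 ± 0.33 in S100. miR-205-5p had -0.07 ± 0.28 in total exRNA, -0.39 ± 0.28 in P40, -1.43 ± 0.28 in P100 and -1.84 ± 0.31 in S100. These 4 comparisons share the lysate libraries. In total exRNA miR-375-3p was thus 2.64-fold below lysate while miR-205-5p overlapped with it, and in P100 miR-205-5p was 2.70-fold below lysate while miR-375-3p stood slightly above. Within batches miR-375-3p was lower in total exRNA than in lysate in 3 of 3 and miR-205-5p lower in P100 in 3 of 3.

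Against total exRNA, miR-375-3p had 1.32 ± 0.30 in P40, 1.84 ± 0.30 in P100 and 0.48 ± 0.31 in S100, and miR-205-5p had -0.32 ± 0.26, -1.36 ± 0.27 and -1.77 ± 0.29. P100 thus held 3.58-fold more of its scaled counts as miR-375-3p and 2.58-fold less as miR-205-5p than the unfractionated medium, each in 4 of 4 batches. Between the pellets, P100 against P40 gave 0.52 ± 0.29 for miR-375-3p, with overlapping libraries, and -1.04 ± 0.27 for miR-205-5p, without overlap. S100 against P40 gave -0.84 ± 0.32 and -1.45 ± 0.29, and S100 against P100 gave -1.36 ± 0.32 and -0.40 ± 0.29. Of the products of the last spin, the supernatant had a 2.57-fold lower level of miR-375-3p than the pellet, and overlapping levels of miR-205-5p.

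**Figure D3:**
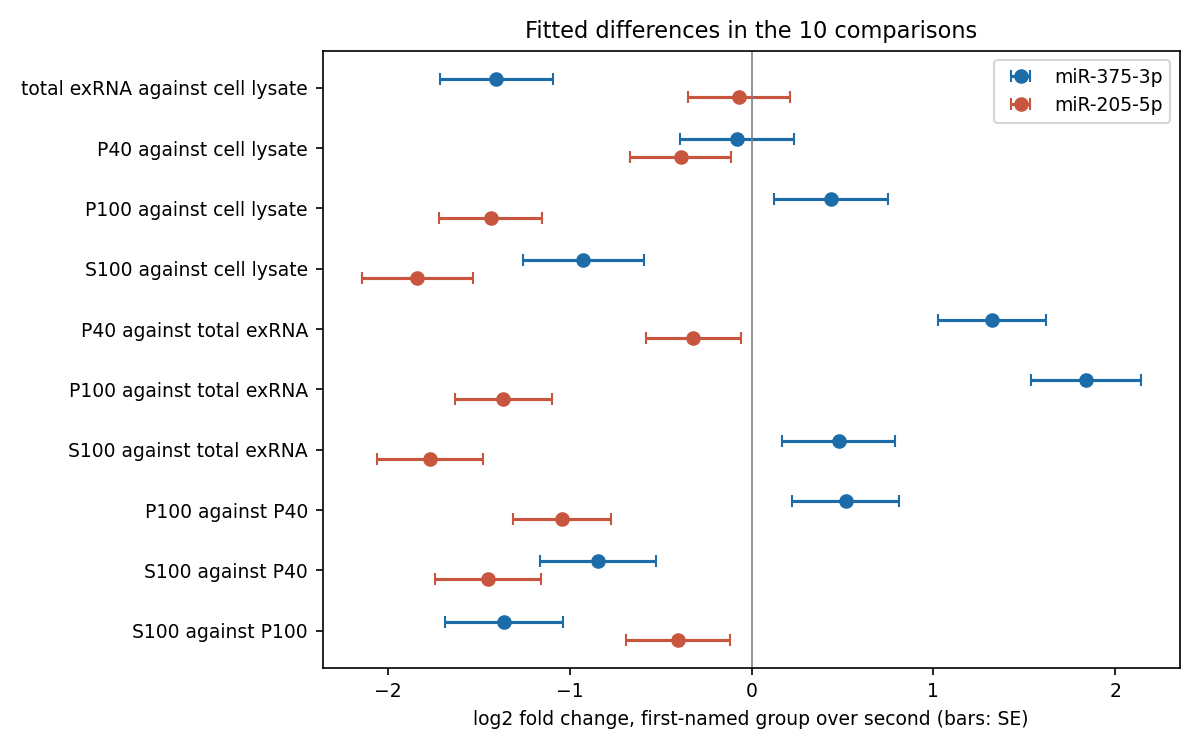
Fitted log2 fold changes (x axis; bars are SE) of miR-375-3p (blue) and miR-205-5p (red) in the 10 comparisons between groups (y axis). The estimates lie on opposite sides of 0 in P100 against cell lysate, in P40, P100 and S100 against total exRNA and in P100 against P40.

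Each member was called (adjusted p below 0.05 in edgeR's quasi-likelihood test over the 227 miRNAs) in 6 of 10 comparisons and had groups without overlap in 6 of 10, from which nothing is read since the members were chosen with these values known. Only miR-375-3p was called in total exRNA against lysate, where 35.2% of tested miRNAs were called and 42.3% had groups without overlap, and in P40 against total exRNA (11.9% and 15%) and S100 against P100 (59.9% and 66.5%). Only miR-205-5p was called in P100 against lysate (37.4% called and 41.9% without overlap), P100 against P40 (4.85% and 11%) and S100 against total exRNA (63.4% and 63.9%). Both were called in S100 against lysate (62.1% called and 66.5% without overlap), P100 against total exRNA (27.8% and 31.7%) and S100 against P40 (52.9% and 52.9%), and neither in P40 against lysate (26.9% and 26%). The call of miR-205-5p in P100 against P40 was lost without P40 replicate 2 (-1.01) or 3 (-0.85) or P100 replicate 1 (-1.09), 3 (-1.08) or 4 (-0.89), with RLE scaling (size factors from the median of ratios, -0.97) and without the filter on low counts (-1.05). With the batch number as a replicate block, miR-375-3p in S100 had -0.86 ± 0.38 against lysate and -0.81 ± 0.35 against P40 and was called in neither.

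Other miRNAs of the same lineages were described from 2 short lists. Of 9 endocrine and neuroendocrine miRNAs, 3 besides miR-375-3p passed the filter (miR-7-5p, miR-9-5p and miR-9-3p). Of 8 squamous epithelial miRNAs, 2 besides miR-205-5p passed (miR-203a-3p and miR-31-5p). The others were scarce: miR-7-1-3p had 121 counts over the 18 libraries, miR-184 25, miR-31-3p 3, miR-129-5p 2, and miR-124-3p, miR-203b-3p and miR-944 1 each, while miR-153-3p had 0. miR-944, which lies in an intron of the squamous regulator gene TP63, was thus practically unseen, and so were the neuronal miR-124-3p and miR-153-3p.

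miR-203a-3p, which restrains proliferation in skin, was the squamous list member closest in level to miR-205-5p. It averaged 5233 ± 2888 CPM in lysate (SD, n = 3), 5114 ± 986 in total exRNA (n = 4), 3087 ± 1145 in P40 (n = 4), 2825 ± 792 in P100 (n = 4) and 1448 ± 473 in S100 (n = 3). With TMM scaling its order of group means was the same as that of miR-205-5p. It was lower in S100 than in lysate (log2 fold change -1.84 ± 0.41, SE; edgeR adjusted p = 0.000416; lower in 2 of 2 batches) and than in total exRNA (-1.82 ± 0.39; edgeR adjusted p = 0.000331; 3 of 3). The first of these calls was lost without the filter on low counts (-1.07), and without lysate replicate 1 its value was -0.94, still called. It was also called lower than in P40 (-1.10 ± 0.38) and P100 (-0.96 ± 0.38), but those calls were lost with RLE scaling, with DESeq2, without the filter on low counts (-0.47 and -0.28), with libraries thinned to equal depth and when single libraries were left out (P40 replicate 3, -0.42, or 4, -0.91; P100 replicate 3, -0.85, or 4, -0.87; any S100 library, -0.57 to -0.99 against P40 and -0.51 to -0.93 against P100).

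miR-31-5p, a miRNA of keratinocytes that is also raised in a subset of colorectal tumours, averaged 1420 ± 304 CPM in lysate (SD, n = 3), 1029 ± 536 in total exRNA (n = 4), 700 ± 319 in P40 (n = 4), 296 ± 90.1 in P100 (n = 4) and 560 ± 122 in S100 (n = 3). It was lower in P100 than in lysate (-2.23 ± 0.50; edgeR adjusted p = 0.00144; lower in 3 of 3 batches) and than in total exRNA (-1.76 ± 0.48; edgeR adjusted p = 0.00756; 4 of 4; not called without total exRNA replicate 4, -1.33). P100 rested on only 22 counts of miR-31-5p in 4 libraries. Besides miR-205-5p, 1 of 2 squamous list members was called lower in P100 than in lysate, where 37.4% of tested miRNAs were called in either direction, with a median log2 fold change of -1.56 beside -0.10 over all 227 miRNAs. In S100 2 of 2 were called lower than in lysate, where 62.1% of tested miRNAs were called, with a median of -1.59 beside -0.04. The call of miR-31-5p in S100 (-1.33 ± 0.48) was lost without lysate replicate 1 (-0.86) or 3 (-0.90) or without S100 replicate 2 (-1.09), 3 (-0.83) or 4 (-0.96). It was also lost with RLE scaling (-0.94) and without the filter on low counts (-0.64).

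The endocrine and neuroendocrine miRNAs were much scarcer than miR-375-3p and differed among themselves. miR-7-5p, a miRNA of neurons and islet cells, had 5 counts in the 260500 counts of lysate and 872 in S100, where it averaged 1407 ± 162 CPM (SD, n = 3) against 15.2 ± 14.8 in lysate (n = 3). It was higher in S100 than in lysate by 5.97 ± 0.87 (higher in 2 of 2 batches), and higher than in P100 by 4.26 ± 0.78 (3 of 3). miR-9-3p was higher in S100 than in lysate by 3.91 ± 0.89 (372 ± 138 against 14.8 ± 25.6 CPM, 2 of 2 batches). Lysate held 6 counts of miR-9-3p, all in 1 library. miR-9-5p, the other arm of the same hairpins, was lower in S100 with -2.45 ± 0.63 (73.4 ± 35.3 against 398 ± 170 CPM; edgeR adjusted p = 0.00178; 2 of 2), a call lost without the filter on low counts (-1.81). In S100 against lysate 2 of these 3 were called higher and 1 lower, where 62.1% of tested miRNAs were called in either direction. Their median was 3.91 beside -0.04 over all tested miRNAs. S100 held 872 of the 912 counts of miR-7-5p and 240 of the 298 of miR-9-3p. Both thus entered the tested set mainly through S100. Their calls in S100 and this median are descriptions, from which nothing is read. miR-375-3p, at -0.92, lay on the side of miR-9-5p. In the other comparisons with lysate 1 of 3 was called higher in each: miR-7-5p in P40 (3.56 ± 0.90), and miR-9-3p in total exRNA (2.50 ± 0.91) and P100 (2.73 ± 1.00). Of all tested miRNAs 26.9%, 35.2% and 37.4% were called in either direction in these comparisons. miR-7-5p in P40 overlapped with lysate and was higher in 2 of 3 batches. It held 21 counts there, with 0 in at least 1 library, against 5 in lysate. miR-9-3p was higher in 3 of 3 batches in both groups, on 30 counts in total exRNA and 12 in P100. Its P100 mean of 163 ± 71.2 CPM compares with 111 to 299 CPM for 3 counts in these libraries. The calls of miR-9-3p were lost without lysate replicate 1 (2.34 in total exRNA and 2.64 in P100) or 3 (2.13 and 2.43), and in P100 without P100 replicate 2 (2.52), 3 (2.66) or 4 (2.65). Without lysate replicate 2, which held all 6 lysate counts of miR-9-3p, lysate was at 0 and the fitted values, which are then no bounds, were 6.05 in total exRNA, 6.14 in P100 and 7.72 in S100.

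The miRNAs whose log2 CPM ran most closely with a member over the 18 libraries were found by Pearson's r, given without a test. The libraries share 5 groups, so r mostly reflects the order of groups. For miR-375-3p these were miR-12136 (r = 0.87), miR-92a-1-5p (0.80), miR-92a-3p (0.78), miR-3651 (0.71) and miR-1301-3p (0.70). All 5 had their lowest mean outside the pellets, in total exRNA or S100. All but miR-92a-3p had their highest mean in P100. miR-12136 spanned a wider range than miR-375-3p, from 72.0 CPM in S100 to 3910 in P100.

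For miR-205-5p the closest were miR-371a-5p (r = 0.89), from an embryonic stem cell cluster, miR-23b-3p (0.88), miR-132-3p (0.88), miR-103a-3p (0.87) and miR-454-3p (0.86). Of these, 4 had their highest mean in lysate and their lowest in S100, and miR-454-3p was highest in total exRNA (406 CPM) and lowest in P100 (21.7 CPM). In P100 libraries 3 counts equal 111 to 299 CPM, so the order of miR-454-3p in P100 and S100 (32.9 CPM) is uncertain. No squamous list member was among the 5. The 2 members themselves had r = -0.15 over 18 libraries and -0.54 over the 15 without S100, and over all 18 miR-205-5p ranked 134th of 226 miRNAs in likeness to miR-375-3p.

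**Figure D4:**
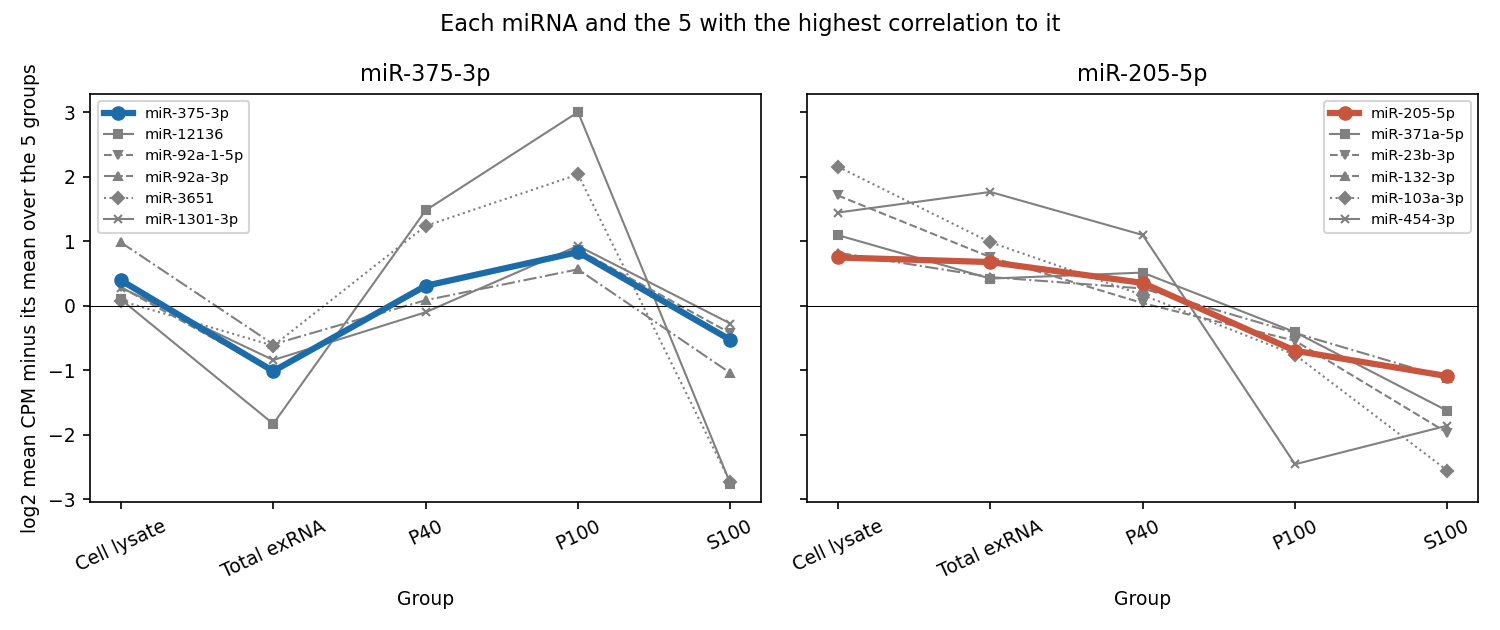
log2 of the mean CPM in each group (x axis) minus the mean of these values over the 5 groups (y axis), for miR-375-3p (left) and miR-205-5p (right) in colour and for the 5 miRNAs with the highest Pearson's r to each in grey; lines join the groups only to guide the eye. The curves on the left are low in total exRNA and high in P100, and those on the right are lower in P100 and S100 than in lysate.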

How the data were processed

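Small RNA libraries (RealSeq-AC kit version 2, single 50-base reads) were described by deposited raw counts per mature miRNA, 1 list per library. The submitters' processing notes name Bowtie2, cutadapt 1.16 and FastQC and the build GRCh38. Step order, settings and the treatment of reads with several matches are not given in the sources used here. Whether replicates were separate cultures is not labelled, so the spread behind each p-value may be technical. A miRNA missing from a list was taken as 0. Libraries with fewer than 100 listed miRNAs were left out (S100 replicate 1), leaving 18 with 10017 to 225290 counts, where 3 counts equal 13.3 to 299 CPM. No replicates held identical counts.

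In R 4.3.3 with edgeR 4.0.16, filterByExpr (minimum count 10, minimum total 15) kept 227 miRNAs with 98.5% to 99.1% of counts. TMM scaling and 1 robust quasi-likelihood model of the 5 groups gave 10 comparisons, adjusted by Benjamini-Hochberg over the 227. log2 CPM used a prior count of 2. The script was tested on simulated data. Alternatives were RLE scaling, library size only, no filter, DESeq2 1.42.0, a replicate block, fits of 2 groups, thinning to 10017 counts and leaving out each library. Fits without a library repeated the filter and scaling, so a call lost this way may also reflect these. Batch numbers in the labels equal replicate numbers and pair the samples by label. The deviations of same-numbered libraries from their group means correlated at a mean of -0.03 (32 pairs, 7 above 0.1). For libraries of different number the mean was 0.01 (97 pairs, 24 above 0.1). Same-numbered libraries were thus no more alike than others by this measure.

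The members, lists and tests were chosen with earlier results of these data known. Named are the members, their opposite arms, tested members of both lineage lists, the 5 most similar miRNAs by Pearson's r for each member, and markers of other cell types with a count.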

Additional observations from a re-analysis of the deposited data

Results flagged for a closer look

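miR-205-5p in P100 replicate 4, at 2333 CPM, lay farther below the other 3 P100 libraries (3675 to 3874 CPM) than Dixon's criterion for 4 samples allows. Chance flags about 1 group in 20. The criterion was applied to every group of 4 libraries for both members, their ratio and the other tested miRNAs of the lineage lists. This was the only flag, and 1 flag among these groups can arise by chance. The value rests on 23 counts in the smallest library, of 10017 counts. Without this library miR-205-5p in P100 against P40 had a log2 fold change of -0.89 ± 0.28 in place of -1.04 ± 0.27.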

How the results depend on the processing

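Of 140 recomputed member fold changes that left out no library, 120 moved by less than 1 SD between replicates, as did 128 of 144 that left out 1 library. No called member changed sign. The cause of each change was not tested. With library size only, total exRNA against lysate was 0.25 for miR-205-5p, and P40 against lysate was 0.27 for miR-375-3p and -0.026 for miR-205-5p. With RLE scaling miR-375-3p was 0.62 in P100 and -0.53 in S100 against lysate (DESeq2, 0.63 and -0.53), and miR-205-5p was -1.44 in S100 against lysate and -1.16 against P40 (DESeq2, -1.43 and -1.16). At equal depth miR-375-3p in S100 was -0.53 against lysate and -0.92 against P100. Without the low-count filter the median of all miRNAs in S100 moved by 0.69 against lysate, 0.64 against P40, 0.65 against P100 and 0.45 against total exRNA. Then miR-375-3p was -0.23 against lysate, -0.23 against P40 and -0.71 against P100, and miR-205-5p -1.13 against lysate, -1.32 against total exRNA, -0.81 against P40 and 0.24 against P100. Fits without 1 library repeated the filter and scaling, so their values carry these changes too, and the main value can lie outside their range. For S100 against lysate the main values were -0.92 for miR-375-3p and -1.84 for miR-205-5p. Leaving out single libraries gave, for S100 against lysate, -0.73 to -0.35 for miR-375-3p (called in 0 of 6) and -1.74 to -1.31 for miR-205-5p; against total exRNA, 0.48 to 0.98 (called in 1 of 7, without S100 replicate 3, and also with DESeq2, 0.62, and at equal depth, 0.88) and -1.76 to -1.38; against P40, -0.89 to -0.28 (called only without P40 replicate 1) and -1.47 to -0.96; and against P100, -1.45 to -0.93 and -0.56 to -0.071.

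With the replicate block miR-375-3p was called in 4 comparisons and miR-205-5p in 6, and the block changed no other call of the members; S100 against lysate was -0.86 for miR-375-3p and -1.67 for miR-205-5p. Without the filter the counts were 1 and 4 (miR-375-3p was -1.15 in total exRNA against lysate and 1.14 in P40 against total exRNA, neither called), and with RLE scaling 4 and 5. The within-library ratio does not use scaling, and adding 1 in place of 0.5 to each count left it within 1 SD in every group. The alternatives for other lineage miRNAs were chosen after seeing the data: 186 of 242 kept the call. Settings in which a miRNA failed the filter are not among the 242. At equal depth miR-7-5p, miR-9-3p and miR-9-5p failed it, so their calls could not be checked there. So did miR-7-5p in the fit of lysate and P40 alone, and miR-9-3p in fits of lysate with total exRNA or P100 alone. P40 and P100 libraries held 44 to 184 counts of miR-375-3p and 23 to 229 of miR-205-5p, which limits their precision.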
